A study of Homo sapiens with 12 samples.

Results

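The genes described here encode the receptors through which cells respond to the transmitters GABA, glutamate, glycine and acetylcholine. They were chosen by name alone, as every gene whose symbol in the array annotation begins with one of the family stems for GABA-A, GABA-B, AMPA, delta, kainate, NMDA, metabotropic glutamate, glycine and nicotinic receptors. This gave 65 of the 18132 genes of the table, of which 61 are filed as receptor subunits and 4 are other genes that share a stem: the antisense RNAs GRIK1-AS1 and GRIK1-AS2, the delta receptor partner GRID2IP and the pseudogene GRM5P1. GLRA4, counted with the glycine receptors, is a pseudogene in the gene table used here. RNA came from Kelly and BE(2)-C, human neuroblastoma lines in which the MYCN oncogene is amplified; BE(2)-C is a clone derived from a parental neuroblastoma line. Each line had received DMSO, the vehicle, or 1 µM JQ1, a BET inhibitor that keeps these proteins from binding acetylated histones, for 24 h. All cultures shared the same DMEM with fetal bovine serum and antibiotics. The 4 groups (Kelly with DMSO, Kelly with JQ1, BE(2)-C with DMSO, BE(2)-C with JQ1) held 3 arrays each. Treatment was done in triplicate per the labels, which do not speak of separate cultures; p-values therefore reflect how far these arrays scatter, and that scatter may be technical. In bulk RNA, fewer cells expressing a gene and less of its RNA per cell cannot be told apart.

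Most of these receptors are channels. GABA-A, glycine and nicotinic receptors form one superfamily of channels with a ring of related subunits around the pore, and AMPA, kainate, NMDA and delta receptors form another. GABA-B and metabotropic glutamate receptors have no pore and act through G proteins. In the sympathoadrenal lineage, from which neuroblastoma arises, nicotinic receptors carry the fast signal of sympathetic ganglia, and the subunit encoded by CHRNA3 is their principal ligand-binding chain. The genes lie partly in clusters: CHRNA5, CHRNA3 and CHRNB4 are neighbours on chromosome 15, and GABRG1, GABRA2, GABRA4 and GABRB1 lie together on chromosome 4.

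Values are log2 of the authors' RMA intensities, with each gene represented by its brightest probe set over the 12 arrays. Signals of different probe sets are not ranked against each other. As a guide to dim signal, 5.78 is used, the 95th percentile of the mean signal of 333 olfactory receptor genes. Within a line, log2 fold changes had a median standard error (SE) of 0.22 over the 65 genes and 0.21 over all genes, and the number of arrays limits this precision. All 10 adrenergic markers that were measured lay above 5.78 in every group, with group means from 7.35 to 14.12, and some of them changed. TH and DBH, enzymes of catecholamine synthesis, fell with JQ1 by 1.91 and 0.98 (log2) in Kelly and by 1.48 and 1.60 in BE(2)-C (limma adjusted p = 0.000167, 0.0345, 0.00147 and 0.00289). PHOX2A, GATA3, CHGA and CHGB rose in BE(2)-C, by 0.58 to 0.83. Under DMSO, DBH, ISL1 and GATA3 were lower in BE(2)-C, by 1.49, 0.75 and 0.59 (limma adjusted p = 0.00105, 0.0143 and 0.0149). CHGB was higher there by 0.72 (adjusted p = 0.0165). The part of these shifts in the receptor results was not tested. The summed log2 signal of 8 Schwann cell or fibroblast markers lay at 8.08 to 8.51 in the Kelly controls, 8.49 to 8.82 in treated Kelly, 8.96 to 9.19 in the BE(2)-C controls and 8.54 to 8.69 in treated BE(2)-C. It was thus lower with JQ1 in BE(2)-C without overlap, and higher in the BE(2)-C than in the Kelly controls. Of these 8, DCN and LUM fell 3.67-fold and 3.98-fold with JQ1 in BE(2)-C (limma adjusted p = 0.000284 and 0.0172). Under DMSO both were higher in BE(2)-C than in Kelly, 3.97-fold and 5.48-fold (limma adjusted p = 1.89e-05 and 0.0013). S100B and COL3A1 also passed as higher there. No other of the 8 passed with JQ1 in either line. GABRB1, GABRA4 and GRIN3A, described below, moved as DCN and LUM did. The part of these markers in the BE(2)-C results was not tested. The sums for 4 blood markers (7.12 to 7.97) and 4 epithelial markers (7.19 to 8.84) stayed low, with 1 marker of each list above 5.78 in every group. Bacterial control transcripts, spiked into the hybridization mix, gave a log2 signal that averaged 11.90 ± 1.29 (SD, n = 3) in the Kelly controls and 12.94 ± 0.69 in the treated Kelly arrays. The BE(2)-C averages were 11.20 ± 1.54 and 11.41 ± 1.20. As a check on RNA integrity and labelling, the 3′ and 5′ control probe sets of actin were compared. The 3′ signal was higher by 1.67 ± 0.50 (log2) in the Kelly controls and 1.72 ± 0.50 in treated Kelly. This Kelly gap followed replicate number, at 1.24, 1.55 and 2.22 in the controls and 1.25, 1.65 and 2.24 in the treated arrays. In BE(2)-C the 3′ signal was higher by 0.91 ± 0.31 and 0.89 ± 0.08. The part of this gap in the differences between the lines was not tested.

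Few of the receptor genes gave clear signal. In Kelly, group means exceeded 5.78 for 18 of 65 genes under DMSO and 23 under JQ1, and in BE(2)-C for 18 under each. In all 4 groups 14 genes did so, and 39 in none. Of all 18132 genes, 11381 and 11789 did so in Kelly under DMSO and JQ1, and 11166 and 11075 in BE(2)-C. Of these 18132, 12449 exceeded it in at least 1 group, 10395 in all 4 and 5683 in none. By class, counting only genes with a probe set that names 1 gene, 10 of 14 nicotinic genes exceeded it in at least 1 group, against 3 of 16 GABA-A genes, 3 of 5 kainate genes, 3 of 7 NMDA genes, 3 of 7 metabotropic glutamate genes, 2 of 5 AMPA and delta genes, 1 of 2 GABA-B genes and 1 of 5 glycine receptor genes. The heat map of all arrays shows these classes side by side.

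**Figure D1:**
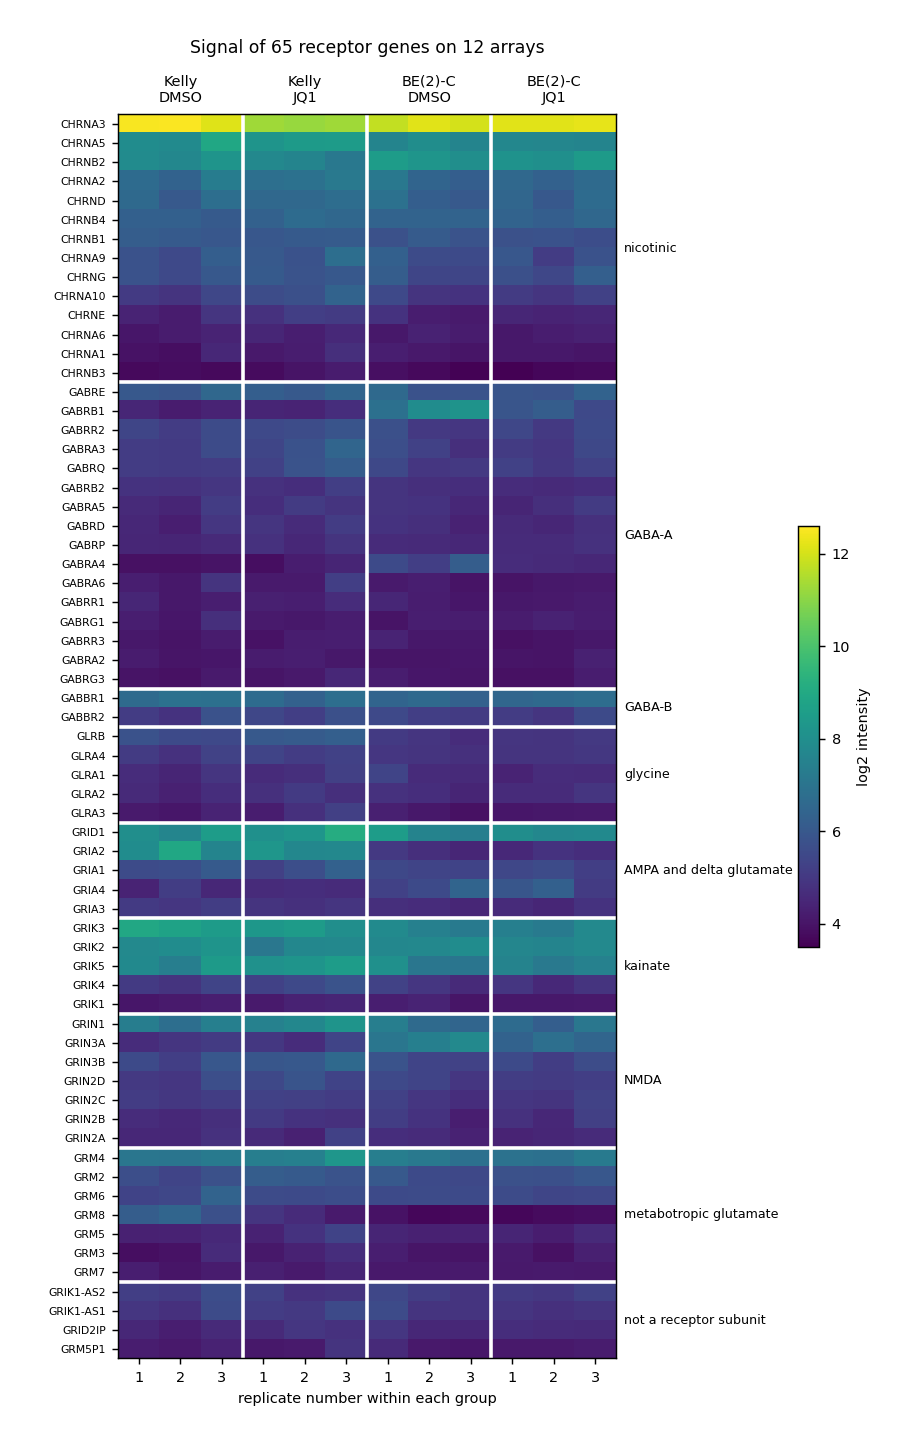
Log2 intensity (colour) of the 65 receptor genes (rows, by class) on the 12 arrays (columns, by group and replicate number). CHRNA3 is bright on every array, GRIA2 and GRM8 are brighter in Kelly with DMSO than in BE(2)-C with DMSO, and GABRB1, GABRA4 and GRIN3A show the opposite.

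The first comparison asks which receptors distinguished the untreated lines. Of the 65 genes 7 passed the threshold (limma with Benjamini-Hochberg adjustment over all 18132 genes, adjusted p under 0.05), 3 higher and 4 lower in BE(2)-C than in Kelly. This is 10.8% of the 65, against 15.1% of all genes (7.20% higher and 7.89% lower). The groups did not overlap for 7 genes lower in BE(2)-C and 5 higher, that is 10.8% and 7.69% of the 65 against 13.6% and 12.1% of all genes. The 58 genes that did not pass had log2 differences from -0.50 to 1.06.

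Genes higher in Kelly came from 4 receptor classes. GRIA2, the AMPA subunit whose edited form keeps calcium out of the channel, lay at 7.93, 8.93 and 7.60 in Kelly with DMSO and at 5.03, 4.74 and 4.46 in BE(2)-C with DMSO. Every Kelly array lay above 5.78 and every BE(2)-C array below it. The log2 difference was -3.41 (SE 0.30, limma adjusted p = 4.45e-06), and the dimmer probe set of GRIA2 gave -2.45 (adjusted p over all probe sets that name 1 gene = 0.00118). GRM8, a metabotropic glutamate receptor that inhibits adenylyl cyclase, lay at 6.17, 6.47 and 5.70 in Kelly and at 3.95, 3.66 and 3.73 in BE(2)-C, a difference of -2.34 (SE 0.22, limma adjusted p = 1.05e-05). Its other probe set gave -0.47 (adjusted p = 0.137), and the average of both -1.40. GRIK3, a kainate receptor subunit, was bright in both lines, at 8.95, 8.76 and 8.51 in Kelly and 7.84, 7.45 and 7.24 in BE(2)-C, and still did not overlap (-1.23, SE 0.21, limma adjusted p = 0.00124). Its other probe set, at a mean of 4.47, showed 0.04. GLRB, the subunit that ties glycine receptors to the scaffold gephyrin, lay at 5.79, 5.54 and 5.51 in Kelly and 5.05, 4.91 and 4.66 in BE(2)-C (-0.74, SE 0.15, limma adjusted p = 0.0046). Its other 3 probe sets differed by -1.71, -1.64 and -0.55, all in the same direction. The BE(2)-C means of GRIA2, GRM8 and GLRB lay under the dim reference, as did the Kelly mean of GLRB, so the sizes of these differences are uncertain.

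Genes higher in BE(2)-C were GABRB1, GABRA4 and GRIN3A. GABRB1, a beta subunit of GABA-A receptors, lay at 6.85, 7.93 and 8.17 in BE(2)-C with DMSO and at 4.48, 4.20 and 4.40 in Kelly with DMSO, a log2 difference of 3.29 (SE 0.29, limma adjusted p = 5.32e-06). GABRA4, a GABA-A alpha subunit found mostly in receptors outside synapses, lay at 5.54, 5.17 and 6.19 in BE(2)-C against 3.90, 3.90 and 3.99 in Kelly (1.70, SE 0.23, limma adjusted p = 0.00022). GRIN3A, a glycine-binding NMDA subunit that lowers calcium entry, lay at 7.07, 7.41 and 7.79 against 4.67, 4.89 and 5.07 (2.55, SE 0.23, limma adjusted p = 5.94e-06). In each of the 3 genes the lines did not overlap, and Kelly stayed below 5.78 on every DMSO array, so that the sizes of these differences are uncertain too. Averaging the probe sets gave smaller differences that still passed, at 1.78 for GABRB1 and 1.03 for GRIN3A. All 7 calls held in every alternative that tested the gene, including each left-out array. Probe sets other than the brightest passed for further genes, all lower in BE(2)-C: GRIA1, an AMPA subunit, at -1.71 and -0.51 (limma adjusted p over all probe sets = 0.000911 and 0.0433), GABRA3 at -0.60 and GRIA3 at -0.65. The probe set used for GRIA1 gave -0.39. These 3 genes are named after their values were seen, and GRIA1 also passed when probe sets were averaged.

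**Figure D2:**
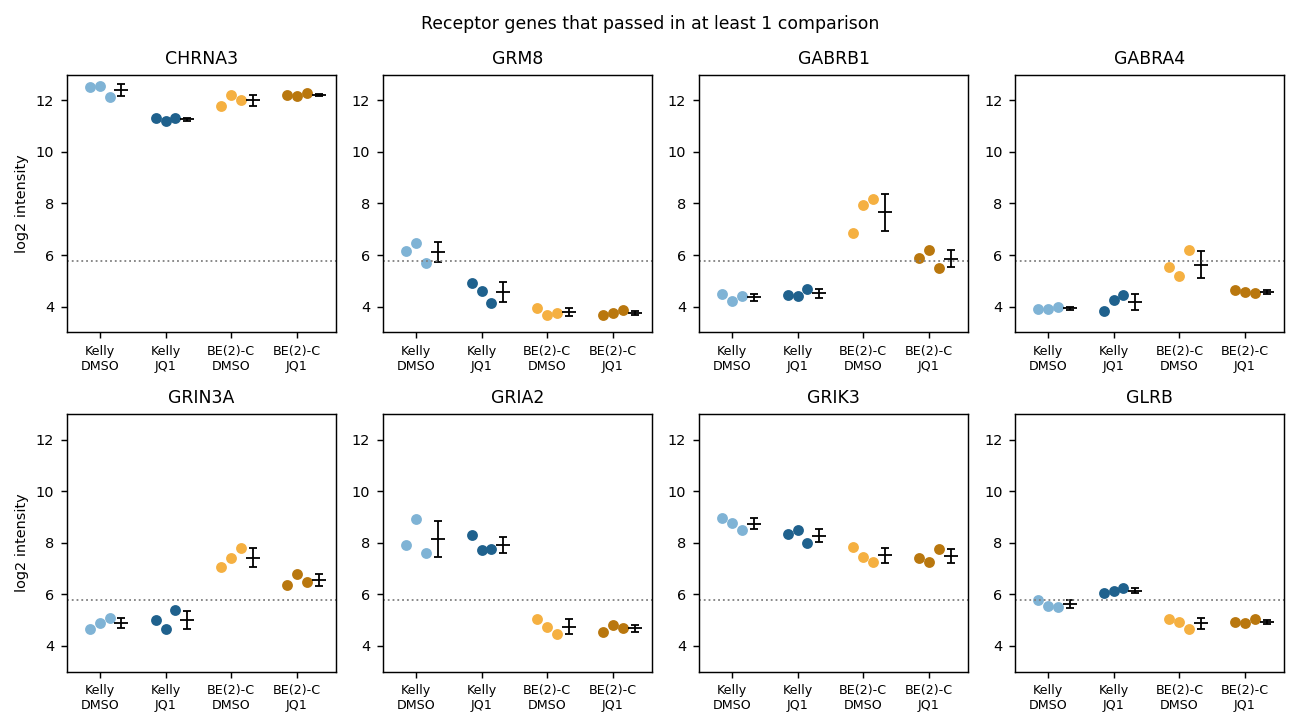
Log2 intensity of each array (points, 3 per group) and the mean ± SD (bars to the right) for the 8 receptor genes that passed in at least 1 comparison. The dotted line marks the dim reference of 5.78; CHRNA3 and GRM8 drop with JQ1 in Kelly, and GABRB1, GABRA4 and GRIN3A drop with JQ1 in BE(2)-C.

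The next comparison asks which receptors JQ1 changed within each line. In Kelly 2 of 65 genes passed, CHRNA3 and GRM8, and both fell; in BE(2)-C 3 passed, GABRB1, GABRA4 and GRIN3A, and all fell. No receptor gene rose in either line at the threshold. An unadjusted limma p under 0.05 was seen for 13 and 3 of the 65, against 4077 and 2767 of all 18132 genes. The shares called were 3.08% in Kelly against 6.50% of all genes, and 4.62% in BE(2)-C against 4.69%, so neither share exceeded that of all genes. JQ1 arrays lay below all DMSO arrays in 5 genes in Kelly (7.69%, against 11.6% of all genes) and in 4 in BE(2)-C (6.15%, against 10.7%). They lay above in 9 genes in Kelly (13.8%, against 12.1%) and in 1 in BE(2)-C (1.54%, against 11.5%).

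Among the nicotinic genes, CHRNA3 fell in Kelly. Under DMSO its signal was 12.50, 12.56 and 12.15, and under JQ1 11.30, 11.21 and 11.31, so that every treated array lay below every control. This was a log2 fall of 1.13 (2.19-fold, SE 0.16, limma adjusted p = 0.00109). The BE(2)-C arrays overlapped, at 11.77, 12.20 and 12.02 with DMSO and 12.19, 12.18 and 12.27 with JQ1, with a log2 fold change of 0.21 (SE 0.16, limma adjusted p = 0.743). The probe sets of CHRNA3 at means of 10.84 and 9.89 changed by -0.91 and -1.95 (log2) in Kelly and passed when all probe sets were tested (limma adjusted p = 0.02 and 0.00485). The one at 5.35, under the dim reference, had 0.25. Adding the control signal to the model as a covariate gave a fall of 1.05 in Kelly (limma adjusted p = 0.000224).

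The neighbours of CHRNA3 did not pass in either line. CHRNA5, an accessory subunit of the ganglionic receptor, differed by 0.16 (log2) in Kelly (limma adjusted p = 0.711) and -0.06 in BE(2)-C (adjusted p = 1.0). CHRNB4, its beta partner, had 0.29 (limma adjusted p = 0.264) and -0.00 (adjusted p = 1.0). CHRNB4 was chosen for its position after its values were seen. Its Kelly controls read 6.30, 6.29 and 6.07 and its Kelly JQ1 arrays 6.34, 6.67 and 6.52, without overlap. Its other probe set, at a mean of 6.21, gave -0.59 (log2) in Kelly (adjusted p over all probe sets = 0.22), so its probe sets disagreed in direction and neither passed. Whether neighbours differed from CHRNA3 in their response was not tested. The 13 nicotinic genes other than CHRNA3 had log2 fold changes from -0.45 to 0.79 in Kelly and from -0.17 to 0.13 in BE(2)-C, and none passed. The highest of these, CHRNA10 in Kelly (0.79, limma adjusted p = 0.0836; singled out after its value was seen), passed when same-numbered arrays of a line were treated as a block (the replicate block).

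The promoters of CHRNA3 and CHRNB4 are shown because the genes are neighbours whose products assemble into one receptor, and only CHRNA3 passed in Kelly. The windows run from 250 bases before to 50 bases after the annotated start, read 5′ to 3′ on the gene's strand (RefSeq, GRCh38.p14), and the starts lie 20.2 kb apart. Capitals mark each E-box of the form CANNTG, the core bound by MYC and other helix-loop-helix factors, searched on both strands.
CHRNA3, chr15:78620947-78621246, minus strand: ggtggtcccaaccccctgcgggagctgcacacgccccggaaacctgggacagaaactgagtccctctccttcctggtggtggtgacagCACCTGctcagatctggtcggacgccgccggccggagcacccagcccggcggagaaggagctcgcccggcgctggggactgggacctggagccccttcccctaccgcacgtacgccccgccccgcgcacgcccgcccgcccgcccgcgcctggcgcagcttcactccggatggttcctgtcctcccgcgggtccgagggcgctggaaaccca
CHRNB4, chr15:78641161-78641460, minus strand: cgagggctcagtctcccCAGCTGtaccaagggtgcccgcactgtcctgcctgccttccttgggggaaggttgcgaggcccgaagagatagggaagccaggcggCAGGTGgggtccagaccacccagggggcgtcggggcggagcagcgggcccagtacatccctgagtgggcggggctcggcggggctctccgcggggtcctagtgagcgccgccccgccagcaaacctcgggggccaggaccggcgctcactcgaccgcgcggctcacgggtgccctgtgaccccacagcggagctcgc
The window of CHRNA3 held 1 such E-box and that of CHRNB4 held 2, and 68.7% of all 35116 RefSeq windows of this length held at least 1. Neither held the form CACGTG, which 7.26% of all windows did. GGGCGG, the GC box, matched 4 times in CHRNA3 and 3 times in CHRNB4, counting both strands and overlapping matches, with no overlap with an E-box; 45.0% of all windows held it. Both windows were rich in G and C, at 72.7%. A match says only that these letters occur there.

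Among the metabotropic glutamate receptors, GRM8 fell in Kelly. The controls read 6.17, 6.47 and 5.70, and the treated arrays 4.91, 4.61 and 4.15. This was a log2 fall of 1.56 (2.95-fold, SE 0.22, limma adjusted p = 0.00118), and no treated array came near a control. All 3 JQ1 arrays lay below the dim reference, so the size of the fall is uncertain. BE(2)-C showed dim signal with either treatment, from 3.66 to 3.95, with a log2 fold change of -0.02. The other GRM8 probe set, at a mean of 3.92, had 0.12 in Kelly, and with the mean of both the fall was 0.72 (limma adjusted p = 0.0187). The other 6 metabotropic glutamate genes had log2 fold changes from -0.13 to 0.60 in Kelly and from -0.12 to 0.13 in BE(2)-C. Among these were the inhibitory receptors GRM4 (0.60, limma adjusted p = 0.148) and GRM2 (0.42, adjusted p = 0.208) in Kelly, where every JQ1 array lay above every DMSO array. GRM2 passed without the 3 arrays of highest control signal.

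The calls for CHRNA3 and GRM8 in Kelly held in every alternative that tested them. The largest adjusted p was 0.0163 for CHRNA3 and 0.0187 for GRM8. The count of receptor genes called in Kelly was 4 instead of 2 without Kelly JQ1 replicate 1, without Kelly DMSO replicate 3 or without BE(2)-C DMSO replicate 1, with 2 rises in each case. With that covariate it was 5, 2 of them rises, and it was 8 without the 3 arrays of highest control signal, 6 of them rises. Over all 18132 genes, the Kelly calls went from 1178 (320 rises) to 2293 (881) with the covariate and 4503 (2196) without those 3 arrays. In the fits with 1 array left out named above they were 1095 (291), 2168 (707) and 1645 (519), in that order.

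In BE(2)-C the GABA-A genes GABRB1 and GABRA4 fell. For GABRB1 the controls read 6.85, 7.93 and 8.17, and the treated arrays 5.90, 6.18 and 5.51, a log2 fall of 1.79 (3.45-fold, SE 0.29, limma adjusted p = 0.00371). The treated arrays lay near the dim reference, yet each was above all 6 Kelly arrays, which ranged from 4.20 to 4.69. For GABRA4 they read 5.54, 5.17 and 6.19 without JQ1 and 4.66, 4.57 and 4.51 with it, a log2 fall of 1.05 (2.07-fold, SE 0.23, limma adjusted p = 0.0222). All JQ1 arrays and 2 of the DMSO arrays lay under the dim reference, so the size of this fall is uncertain too. In Kelly GABRB1 had a log2 fold change of 0.15 and GABRA4 of 0.25 (limma adjusted p = 0.78 and 0.526), at signals of 3.84 to 4.69.

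The call for GABRB1 held under every alternative that tested it, with a largest adjusted p of 0.0329. Its log2 fold change was -2.19 without BE(2)-C DMSO replicate 1, the control array with the lowest GABRB1 and the highest control signal of its group. The call for GABRA4 was lost without BE(2)-C JQ1 replicate 1 (limma adjusted p = 0.0751), 2 (0.084) or 3 (0.0811), without BE(2)-C DMSO replicate 3 (0.0687) and with the 6 BE(2)-C arrays alone (0.0606). The other probe set of GABRA4 had a log2 fold change of -0.76 and that of GABRB1 of -0.33, and neither passed (limma adjusted p over all probe sets = 0.0586 and 0.889). Averaged over their probe sets both passed, at -0.91 for GABRA4 and -1.06 for GABRB1. The count of receptor genes called in BE(2)-C was 1, GABRB1, without any 1 of the JQ1 arrays and without DMSO replicate 3. Over all 18132 genes, the BE(2)-C calls went from 850 to 322, 386 and 471 without JQ1 replicates 1, 2 and 3. Without DMSO replicate 3 they were 539.

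GABRB1 and GABRA4 lie next to each other on chromosome 4 with 38.0 kb between their starts and point away from each other. Their promoter windows are shown because the genes fell together. They are given as for CHRNA3, with E-boxes in capitals.
GABRA4, chr4:46993532-46993831, minus strand: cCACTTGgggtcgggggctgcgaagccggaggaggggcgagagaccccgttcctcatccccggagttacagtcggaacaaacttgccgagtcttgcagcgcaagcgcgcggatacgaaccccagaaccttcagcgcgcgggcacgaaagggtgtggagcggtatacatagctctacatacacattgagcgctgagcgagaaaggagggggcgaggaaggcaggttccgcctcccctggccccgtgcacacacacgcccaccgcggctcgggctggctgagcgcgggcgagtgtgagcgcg
GABRB1, chr4:47031317-47031616, plus strand: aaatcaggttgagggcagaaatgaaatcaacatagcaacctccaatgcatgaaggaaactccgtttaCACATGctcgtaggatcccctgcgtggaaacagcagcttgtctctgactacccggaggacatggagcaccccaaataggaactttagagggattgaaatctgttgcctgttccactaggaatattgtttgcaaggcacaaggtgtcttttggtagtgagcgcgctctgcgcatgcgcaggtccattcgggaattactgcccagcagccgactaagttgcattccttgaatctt
Each window held 1 E-box of the form CANNTG and neither held CACGTG or GGGCGG. The GABRA4 window was 66.0% G and C and that of GABRB1 48.7%. The remaining genes of the cluster, GABRG1 and GABRA2, named after their values were seen, lay below the dim reference in every group, with means from 4.03 to 4.36, and had log2 fold changes of 0.10 and 0.07 in BE(2)-C. The 14 GABA-A genes that passed in no comparison had log2 fold changes from -0.20 to 0.66 in Kelly and from -0.20 to 0.11 in BE(2)-C. GABRE, an epsilon subunit, is one of these (0.07 and -0.05).

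The third receptor gene that fell in BE(2)-C was GRIN3A, whose controls read 7.07, 7.41 and 7.79 and whose treated arrays read 6.35, 6.81 and 6.47. The groups did not overlap, and all 6 values were above the dim reference. The log2 fall was 0.88 (1.84-fold, SE 0.23, limma adjusted p = 0.0463), against a log2 fold change of 0.14 in Kelly (adjusted p = 0.737). This call lay close to the threshold. Leaving out BE(2)-C JQ1 replicate 1 (limma adjusted p = 0.203), 2 (0.0716) or 3 (0.141) ended it, as did leaving out BE(2)-C DMSO replicate 2 (0.139) or 3 (0.172). The same held for Kelly JQ1 replicate 1 (0.0667) and for replicates 1 (0.0661) and 2 (0.058) of Kelly DMSO. It was also lost with the 6 BE(2)-C arrays alone (0.065), with a variance prior that follows intensity and is robust to outlying genes (the trend and robust prior, 0.0562) and with the mean of its probe sets (-0.39, adjusted p = 0.188). Its other probe sets, at means of 4.82 and 3.92, had log2 fold changes of -0.26 and -0.02.

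**Figure D3:**
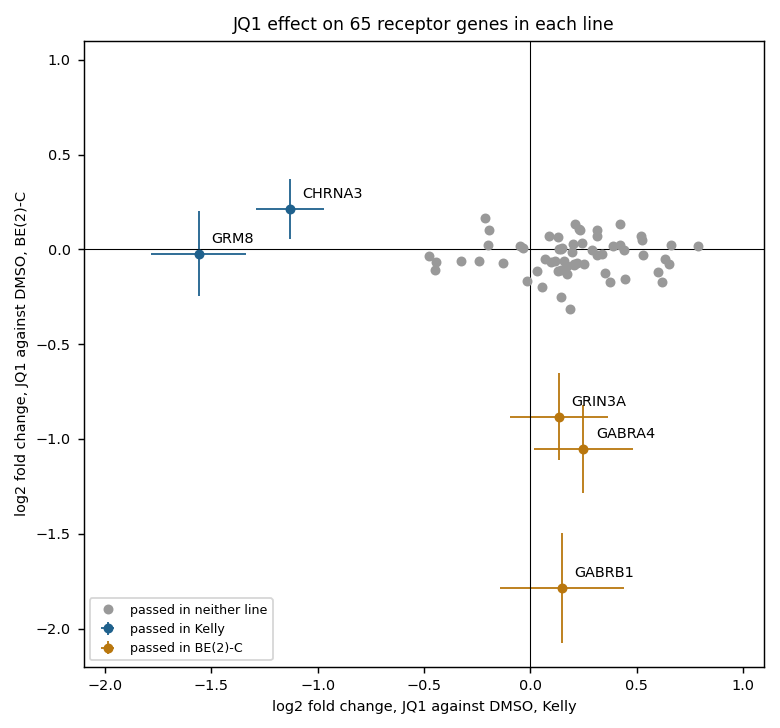
Log2 fold change of the 65 receptor genes with JQ1 in Kelly (x axis) and in BE(2)-C (y axis); bars on the coloured points are SE. CHRNA3 and GRM8 lie to the left near 0 on the y axis, GABRB1, GABRA4 and GRIN3A lie below near 0 on the x axis, and the other 60 genes lie between -0.47 and 0.79 in Kelly and between -0.31 and 0.17 in BE(2)-C.

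By the brightest probe set, no gene of the AMPA and delta, kainate, GABA-B or glycine classes passed with JQ1, nor any NMDA gene but GRIN3A. Dimmer probe sets of GRIA1 fell in Kelly by 1.74 and 0.61 (log2; limma adjusted p over all probe sets = 0.0028 and 0.0408), while its other 2, the one used included, gave -0.37 and -0.03. GRIA1 passed when probe sets were averaged, so its call in Kelly depends on the probe set. A dimmer probe set of CHRNB1, a muscle-type nicotinic subunit, also fell in Kelly, by 0.63 (adjusted p = 0.038). It lay at a mean of 4.94, under the dim reference. Brighter CHRNB1 probe sets gave -0.02 and 0.05, and the dimmest gave -0.71 (limma adjusted p over all probe sets = 0.0782). GRIA1 and CHRNB1 were picked out after their values were seen. GRIN1, the obligatory NMDA subunit, differed by 0.62 (log2) in Kelly (controls 7.35, 6.80 and 7.42, treated 7.50, 7.71 and 8.21; limma adjusted p = 0.239) and -0.17 in BE(2)-C. Its dimmer probe sets gave 0.06, -0.08 and 0.29 in Kelly. GRIK3 and GRIK2, both kainate subunits, lay lower with JQ1 on every Kelly array, by -0.47 and -0.45, without passing (limma adjusted p = 0.205 and 0.185), and had -0.03 and -0.11 in BE(2)-C. GRIA2, which separated the lines, had -0.24 and -0.06. GRID1, a delta receptor gene, had 0.44 and -0.00. GABBR1 and GABBR2, the obligate partners of the GABA-B receptor, had -0.21 and 0.20 in Kelly and 0.17 and -0.08 in BE(2)-C, none passing. Dimmer probe sets of GABBR1 gave 0.45 and 0.29 in Kelly, opposite in direction to the one used, and did not pass (limma adjusted p over all probe sets = 0.234 and 0.366).

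Of the glycine receptor genes, GLRB read 5.79, 5.54 and 5.51 in the Kelly controls and 6.05, 6.11 and 6.25 in the treated Kelly arrays, without overlap, and its log2 fold change of 0.52 (SE 0.15) missed the threshold (limma adjusted p = 0.0634). It passed with quantile normalization (0.0328), with the mean of its probe sets (0.0343), with an offset of 16 added before log2 (0.04), with the covariate (0.0394) and without BE(2)-C DMSO replicate 1 (0.0469). Its other 3 probe sets gave 0.83, which passed when all probe sets were tested (limma adjusted p = 0.019), 0.40 and 0.40. The value of GLRB in BE(2)-C was 0.07. GLRA4 had 0.20 and 0.03.

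Most of the 65 genes had values slightly above 0 in Kelly. Their median log2 fold change there was 0.19, with 51 of 65 above 0, against 0.08 and 59.4% of all genes. Among all 6633 genes whose mean lay below the dim reference 78.9% were above 0, with a median of 0.17, and the 65 genes, 78.5% of them above 0, were mostly dim. With the covariate the receptor median in Kelly was 0.06, with 39 of 65 above 0. For all genes it was then 0.03, with 9891 of 18132 above 0, and for the dim genes 0.06, with 4144 of 6633. The receptor median in BE(2)-C was -0.03 against -0.01 for all genes. There 25 of 65 (38.5%) were above 0, against 48.4% of all genes and 44.8% of the dim genes. The control signal was higher in JQ1 than in DMSO in all 3 same-numbered Kelly pairs. The part of dim signal and of control signal in the Kelly values was not tested.

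**Figure D4:**
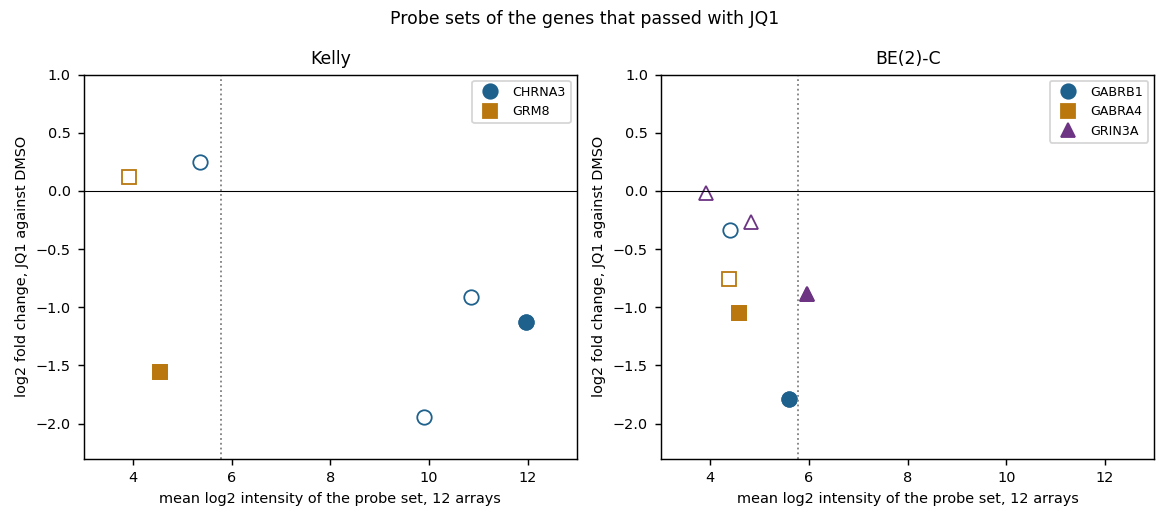
Log2 fold change with JQ1 (y axis) of every probe set of the genes that passed, against its mean log2 intensity over 12 arrays (x axis); filled symbols are the probe sets used, open ones the others, and the dotted line marks 5.78. The 3 brighter CHRNA3 probe sets fell by 0.91 to 1.95 in Kelly, and the dimmest probe sets of GRM8, GABRB1 and GRIN3A lay closer to 0 than the ones used.

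The test of the difference between the lines in their JQ1 effect called 1 receptor gene, CHRNA3 (1.54% of the 65, against 0.557% of all genes). Its log2 fold change was 1.34 higher in BE(2)-C than in Kelly (SE 0.23, limma adjusted p = 0.0188). With the replicate block it no longer passed (adjusted p = 0.0553). Nor did it without replicate 1 (0.0785) or 2 (0.0577) of Kelly DMSO, replicate 2 of Kelly JQ1 (0.0648), replicate 3 of BE(2)-C DMSO (0.0509) or replicate 1 (0.0699), 2 (0.0663) or 3 (0.0596) of BE(2)-C JQ1. GRM8 (1.54, limma adjusted p = 0.056), GABRB1 (-1.93, 0.0641), GABRA4 (-1.30, 0.139) and GRIN3A (-1.02, 0.26) did not pass, so a difference between the lines is not shown for these. GRM8 passed with the replicate block (0.0338) and with the trend and robust prior (0.0336). GRM8 also passed without Kelly JQ1 replicate 1 (0.0391) or Kelly DMSO replicate 3 (0.0156), and GABRB1 without BE(2)-C DMSO replicate 1 (0.00206). With the control signal covariate, CHRNA3, GRM8, GABRB1 and GABRA4 passed. The 4 genes other than CHRNA3 that fell were each higher under DMSO in the line in which they fell. CHRNA3 also lay higher under DMSO in Kelly, where it fell, but did not pass (-0.40 in BE(2)-C against Kelly, limma adjusted p = 0.129). That difference passed with quantile normalization (0.0342), with the covariate (0.019), without the 3 arrays of highest control signal (0.0385) and without Kelly DMSO replicate 3 (0.0456). For each gene, the comparison under DMSO and the JQ1 comparison share the DMSO arrays of that line.

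A further 83 genes that make, transport or break down these transmitters, or that assemble, anchor or assist the receptors, were listed by function, and 78 were measured. In Kelly 5 of the 78 fell and 0 rose, against 4.73% and 1.76% of all genes, and the list's median log2 fold change was 0.14. SHANK2, a scaffold of excitatory synapses, fell by 1.63 (controls 7.23, 7.63 and 6.70, treated 5.28, 5.68 and 5.71, SE 0.29, limma adjusted p = 0.00447). NLGN1, a postsynaptic adhesion protein, fell by 0.95 (limma adjusted p = 0.00707). Both calls held without each array in turn. Every Kelly array of NLGN1 lay under the dim reference (5.42, 5.74 and 5.15 with DMSO, 4.37, 4.62 and 4.48 with JQ1). The Kelly JQ1 arrays of SHANK2 lay under it too, so the sizes of both falls are uncertain. TMEM35A, a chaperone that nicotinic receptors need for assembly, read 9.12, 9.23 and 7.30 in the controls and 7.08, 6.98 and 7.25 after treatment, and fell by 1.45 (SE 0.38, limma adjusted p = 0.04). The gap between its lowest DMSO and highest JQ1 array was narrow.

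The call for TMEM35A was lost without any 1 array of Kelly except DMSO replicate 3, with limma adjusted p of 0.18 (DMSO replicate 1), 0.169 (DMSO replicate 2), 0.0826, 0.119 and 0.0881 (JQ1 replicates 1, 2 and 3). It was lost also without BE(2)-C DMSO replicate 2 (0.0602) or 3 (0.0529) or BE(2)-C JQ1 replicate 1 (0.0644), 2 (0.0597) or 3 (0.0589). GLUD1, a mitochondrial glutamate dehydrogenase, fell by 0.77 (limma adjusted p = 0.0309), a call that ended without replicate 1 (0.122) or 2 (0.119) of Kelly DMSO, replicate 1 (0.0501) or 3 (0.0869) of Kelly JQ1, or replicate 1 (0.0543) or 2 (0.0505) of BE(2)-C JQ1.

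SHANK2 was also lower with JQ1 in BE(2)-C, by 1.03 without overlap, but missed the threshold there (limma adjusted p = 0.06325). Its difference between the lines did not pass (0.563). KCTD12, an auxiliary subunit of GABA-B receptors, was the accessory gene whose fall passed in both lines. Its Kelly controls read 11.26, 11.08 and 11.40 against 10.74, 10.64 and 10.45 in the treated arrays. For BE(2)-C the values were 8.90, 8.75 and 8.92 against 7.67, 7.37 and 7.48. The groups did not overlap in either line. The falls were 0.64 (SE 0.15, limma adjusted p = 0.0253) and 1.35 (SE 0.15, adjusted p = 0.000369). The Kelly call ended without DMSO replicate 1 of that line (0.098) or its JQ1 replicate 2 (0.0681) or 3 (0.0674), and the call in BE(2)-C held without each array. Of the 78 genes 1 rose and 1 fell in BE(2)-C, against 2.18% and 2.51% of all genes, with a list median of -0.02. The gene that rose was GABARAPL2, of the GABARAP family of trafficking and autophagy proteins (0.56, limma adjusted p = 0.031), whose call was lost without any 1 of the 6 BE(2)-C arrays (0.052 to 0.164) or without Kelly DMSO replicate 1 (0.0583). The difference between the lines called 0 of the 78 genes in limma, against 0.557% of all genes. An unadjusted p under 0.05 was reached by 6 of the 78, against 2047 of all 18132 genes.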

How the data were processed

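Each of the 12 samples has 1 Affymetrix PrimeView array. The authors' tool was RMA, per the submitters' processing notes; its version: not given in the sources used here. What was deposited is a linear intensity per probe set (array medians 61.4 to 67.3), and log2 was taken here with no offset, filter or further normalization. Of 49395 probe sets, 44988 named 1 gene and were used, including 152 of the receptor genes; 9 that named a receptor gene together with another were not. Symbols were updated through gene identifiers (99.9% matched). Each gene was read from its brightest probe set.

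All 18132 genes were fitted with limma 3.58.1 in R 4.3.3 as 4 group means over 12 arrays (lmFit, contrasts.fit, eBayes without trend), with two-sided p-values adjusted by Benjamini-Hochberg per contrast at 0.05. The fit was tested on simulated data. Promoter windows were found for 50 of the 65 genes.

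The members, the lists and the alternatives were chosen with earlier results of these data known. Named are all receptor genes passing in at least 1 of 4 contrasts, the 2 with the highest mean in each class, and up to 5 passing accessory genes per line with the largest changes; others are said to be chosen after their values were seen. Residuals of same-numbered DMSO and JQ1 arrays correlated across genes at 0.434, 0.228 and 0.515 in Kelly and at -0.0706, 0.527 and -0.744 in BE(2)-C. In Kelly, DMSO replicate 2 correlated at 0.463 with JQ1 replicate 1. In BE(2)-C, DMSO replicate 3 correlated at 0.786 with JQ1 replicate 2. The replicate block fitted same-numbered arrays as pairs in both lines, although the BE(2)-C residuals do not bear this pairing out. Alternatives changed the probe set rule, normalization, offset, dim filter, prior, arrays fitted, replicate block, control signal covariate and each array in turn.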

Additional observations from a re-analysis of the deposited data

Results flagged for a closer look

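CHRNA3 was singled out because a test of the difference between the lines in their JQ1 effect passed for it without the replicate block: its log2 fold change was 1.34 higher in BE(2)-C than in Kelly (SE 0.23, limma adjusted p = 0.0188), with a fall of 1.13 in Kelly and a log2 fold change of 0.21 in BE(2)-C. All 3 Kelly JQ1 arrays lay below all 3 Kelly DMSO arrays, and in BE(2)-C the groups overlapped. With same-numbered arrays of each line as a block, the difference did not pass (limma adjusted p = 0.0553). In Kelly, residuals of same-numbered DMSO and JQ1 arrays correlated at 0.434, 0.228 and 0.515, although DMSO replicate 2 correlated at 0.463 with JQ1 replicate 1. The BE(2)-C residuals do not bear that pairing out. Nor did the difference pass with any of 7 single arrays left out. Over all alternatives the adjusted p ran from 0.0026 to 0.0785.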

How the results depend on the processing

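The calls of CHRNA3 and GRM8 in Kelly, of GABRB1 in BE(2)-C and of the 7 genes that separated the lines kept their direction and their side of the threshold in every alternative that tested them. No named receptor gene reversed a call. The number of receptor genes called in Kelly (2) was 4 with the mean of the probe sets (GRIA1 and GLRB added), 1 with the dim filter, 5 with the control signal as a covariate, 8 without the 3 arrays of highest control signal and 2 to 4 with 1 array left out. In BE(2)-C (3) it was 1 with the dim filter, 1 with the 6 arrays alone and 1 to 3 with 1 array left out. For the difference (1) it was 2 with the trend and robust prior, 4 with the covariate, 3 without the 3 arrays and 0 to 2 with 1 array left out; for BE(2)-C against Kelly (7) it was 3 with the dim filter and 7 to 8 with 1 array left out. The dim filter removed GRM8, GABRB1, GABRA4 and GLRB from the test. The cause of the other shifts was not tested.

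With the replicate block the receptor counts were 3 in Kelly, 3 in BE(2)-C, 1 in the difference (GRM8 instead of CHRNA3) and 7 between the lines. Accessory genes called (alternatives chosen after seeing the data) numbered 3 in Kelly (5) with the mean of the probe sets, 2 with the 6 arrays alone, 12 with the covariate, 12 without the 3 arrays and 2 to 6 with 1 array left out. In BE(2)-C (2) they numbered 1 with the 6 arrays alone, 1 with the replicate block, 7 with the covariate, 7 without the 3 arrays and 1 to 3 with 1 array left out. Quantile normalization moved the all-gene calls in Kelly from 320 higher and 858 lower to 608 and 862. Over all genes, calls numbered 1178 in Kelly, 850 in BE(2)-C, 101 in the difference and 2735 between the lines; with the covariate they numbered 2293, 2752, 686 and 4800, without the 3 arrays 4503, 2565, 457 and 4073, and with 1 array left out 603 to 2168, 322 to 1210, 39 to 212 and 1956 to 3163. The 6 Kelly arrays alone gave 584. No detection call is given for these arrays, so signal near or under 5.78 limits the fold changes of the 39 genes below it in all groups, GABRA4 among them, and of GRM8, GRIA2, GABRB1, GRIN3A and GLRB where a group lies below it.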
